A study of Mus musculus with 6 samples.

Results

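The genes described here are 10 targets and feedback regulators of Notch signalling: Hes1, Hes5, Hey1, Hey2, Heyl, Nrarp, Dtx1, Dtx4, Bcl6 and Id4. They were chosen by name, and every probe set whose platform annotation gives 1 of these symbols was taken. That gave 19 probe sets of the 45101 on the array, for 10 of the 18194 genes that have a probe set with a single symbol. Of the 19 probe sets, 16 were bright enough to be tested, and they belong to 9 of the genes. Both Hes5 probe sets and 1 of the pair for Dtx1 were too dim and are given as signals only.

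RNA came from mouse hair follicle bulbs at postnatal day 9, and 6 Affymetrix arrays were run, 2 in each of 3 groups. The emN1 group is follicles of skin deleted for Notch1 during embryonic life, which lack functional Notch1. The anN1 group is follicles from an area in which deletion took place in anagen, the growth phase of the hair cycle, and they have functional Notch1 according to the labels. The third group is wild-type follicles, and the submitters used anN1 and wild-type together as controls. The sources used here name no allele, driver of the deletion, strain or pooling of animals, and the labels call the 2 arrays of a group biological replicates. The arrays were run in 2 sets: replicate 1 of emN1 and of anN1 in the first, and the other 4 arrays in the second, so both wild-type arrays lie in the second set.

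Notch receptors are cleaved when they bind Delta or Jagged ligands on a neighbouring cell, and the freed intracellular domain enters the nucleus and joins the DNA-binding protein Rbpj to switch on target genes. Hes and Hey genes, the classical targets, encode basic helix-loop-helix repressors, while Nrarp and the Deltex (Dtx) proteins bind the intracellular domain and act back on the pathway. In the hair follicle Notch1 is found in matrix and differentiating cells above the dermal papilla, and the pathway is known for maintaining follicle cell fates and melanocytes.

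The promoter sequences show which of these genes carry the binding letters of Rbpj or of the Hes and Hey proteins close to the start. RefSeq windows of 250 bases before to 50 bases after the start (GRCm38.p6) matched 6 of the 10 genes: Nrarp, Hes5, Hey2, Dtx1, Id4 and Bcl6, the last with 2 windows. The Rbpj core GTGGGAA, searched on both strands, occurred in 2 of the genes, Hes5 and Hey2, each with 2 matches. Of all 32851 windows of the same length, 6.38% held at least 1 match and 0.256% at least 2. The 30-base stretches around these matches are shown with the core in capitals, as GTGGGAA or, where the core lies on the opposite strand, as TTCCCAC.
Hes5, chr4:154960686-154960715, plus strand: gggcgagcgcgTTCCCACagcccggacatt
Hes5, chr4:154960829-154960858, plus strand: ggccgccgagtGTGGGAAcggccgcggcgc
Hey2, chr10:30842972-30843001, minus strand: gcgcggtggcaTTCCCACgcctctgccaac
Hey2, chr10:30842769-30842798, minus strand: tgggctgcagcGTGGGAAagaacctccagg

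The E-box CACGTG, a palindrome that helix-loop-helix proteins can bind, occurred in 7.15% of all windows and in those of 2 of the genes, Nrarp and Bcl6. These are shown because Nrarp and Bcl6 gave the clearest differences in opposite directions, and the capitals mark the E-box. The Nrarp stretch is the whole 250 bases before its start and the Bcl6 stretch is 30 bases around the match.
Nrarp, chr2:25180508-25180757, plus strand: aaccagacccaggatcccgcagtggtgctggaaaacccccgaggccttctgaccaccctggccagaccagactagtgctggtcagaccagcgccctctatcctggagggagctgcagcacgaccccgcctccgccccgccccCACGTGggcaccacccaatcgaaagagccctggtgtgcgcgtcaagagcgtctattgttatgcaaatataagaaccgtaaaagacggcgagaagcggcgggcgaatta
Bcl6, chr16:23988895-23988924, minus strand: cgtcacggagccCACGTGacggcggcggag

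A shared match is a description of letters in a window, and Nrarp and Bcl6 differed in opposite directions between the groups. The N-box CACNAG, the letters first described for Hes proteins, was in 42.5% of all windows and among these genes in the windows of Nrarp, Dtx1, Id4 and Bcl6.

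Signals are on the linear scale of the deposited table, with the same trimmed mean of 1500 on every array. A signal is called under background here when it lies under 112, the 95th percentile of 20 bacterial control probe sets. The share of probe sets above that limit was 64.6% to 68.1% across the arrays. The array sets differed in some of the RNA controls. The 3′ probe set of 18S rRNA read 85594 and 86619 in the first set and 35235 to 43041 in the second. The 3′ to 5′ ratio of beta-actin was 4.59 and 5.64 against 2.39 to 2.71. For Gapdh that ratio was 4.79 and 6.96 against 4.64 to 5.45, so the sets overlapped. The markers of the labelled tissue were present, with 9 of 9 tested hair matrix and shaft genes and 6 of 6 inner root sheath genes above background on all arrays. Notch1 itself, read by its brightest probe set, read 6498 and 6292 for emN1, 15077 and 12527 for anN1, and 23750 and 34070 for wild-type, so that no group overlapped another. The sources used here do not give which part of Notch1 was deleted, so the remaining signal in emN1 does not check the deletion.

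In emN1 against all 4 controls, Nrarp and Heyl were lower and none of the 9 tested genes was called higher. The test was limma's moderated test on log2 signals with the array set as a term, adjusted by Benjamini-Hochberg over 27022 probe sets, with a threshold of 0.05. It called 3 of the 16 tested probe sets lower, where 3.77% of all 27022 were called in either direction, 1.37% lower and 2.41% higher. The log2 difference lay below 0 for 12 of the 16, against 51.4% of all probe sets, and its median was -0.40 against -0.01. At an unadjusted p under 0.05 stood 9 of the 16, against 16.6% of all. A probe set that was tested because of its level in only 1 group would have had to differ, so these shares describe the 16 and not all 19. Without limma's intensity trend, or in the second array set alone, none of the calls on the 10 genes held, and without the array set as a term the call was kept by 1 Nrarp probe set (1417986_at) and lost by the other (adjusted p = 0.0639) and by Heyl (adjusted p = 0.130). In each of these settings most or all calls over all 27022 probe sets were lost too. Hair bulbs hold many cell types, and a lower signal from fewer cells of a type cannot be told apart from less RNA per cell.

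**Figure D1:**
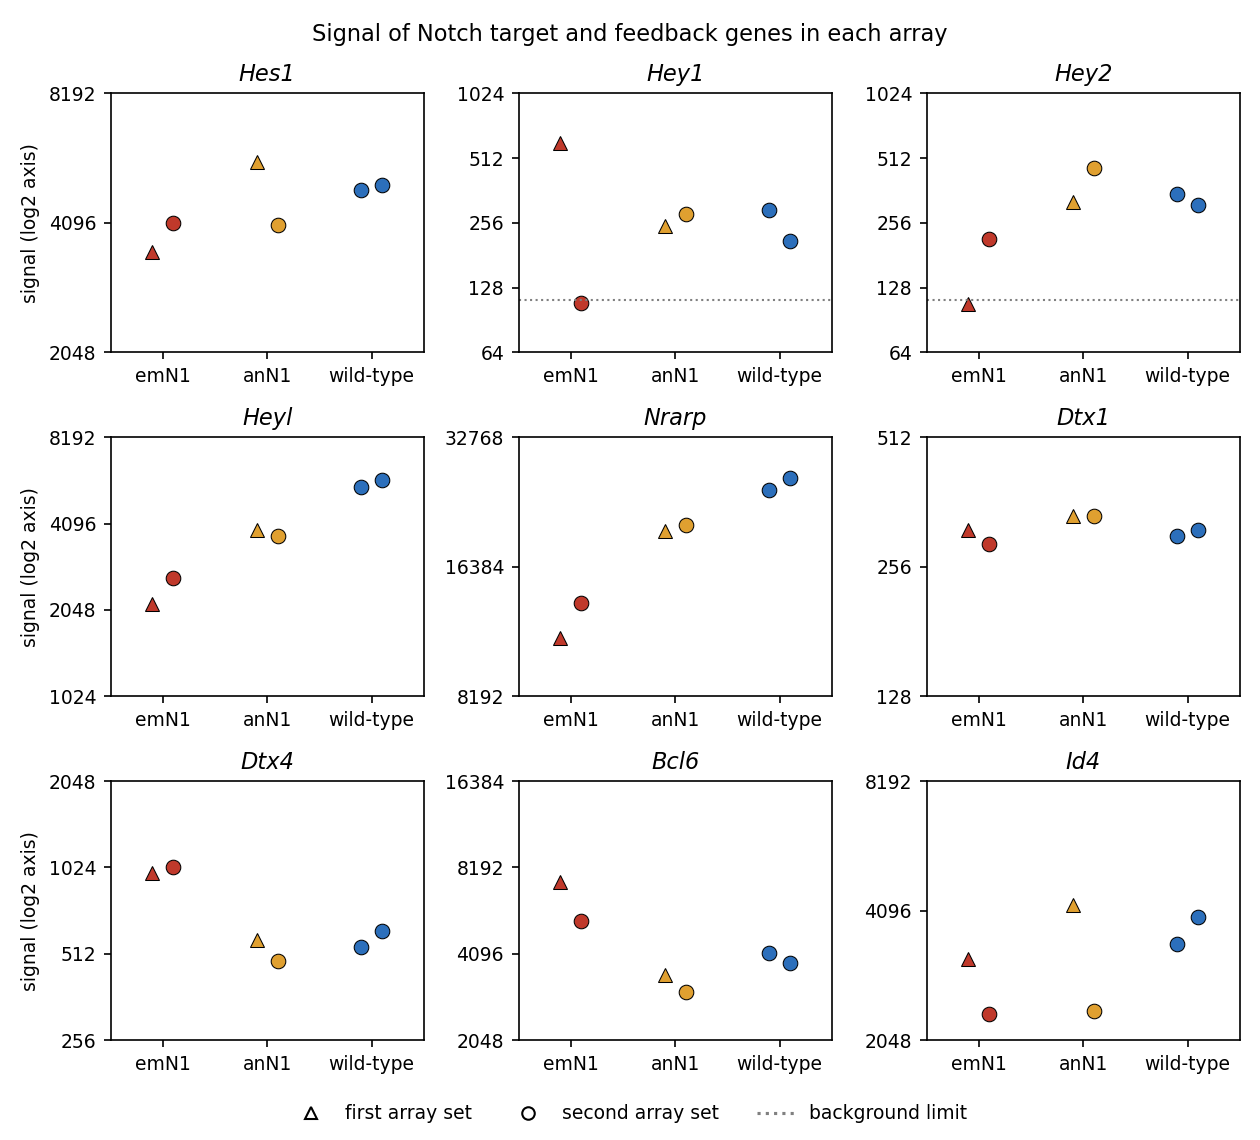
Signal (log2 axis) of the brightest tested probe set of each of 9 genes in the 6 arrays, grouped as emN1, anN1 and wild-type, with triangles for the first array set, circles for the second and a dotted line at the background limit of 112. Nrarp and Heyl step up from emN1 through anN1 to wild-type with no overlap, Dtx4 and Bcl6 are highest in emN1, and Hey1 differs more within emN1 (600 and 109) than between groups.

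Nrarp, which binds the intracellular domain of Notch together with Rbpj and limits its action, was the most strongly lowered by test. Its brighter probe set (1417985_at) read 11179 and 13518 in emN1, 19813 and 20444 in anN1, and 24710 and 26298 in wild-type. Its other probe set (1417986_at) read 1155 and 1370, then 2602 and 2745, then 3996 and 4244. In both, every emN1 array lay under every anN1 array and every anN1 array under every wild-type array.

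Against the 4 controls the brighter Nrarp probe set fell by 0.81 on the log2 scale (SE 0.12, adjusted p = 0.00918) and the other fell by 1.29 (SE 0.20, adjusted p = 0.0122). The mean emN1 signal was 54.1% and 37.2% of the control mean. Nrarp also fell against each control group alone: the differences were -0.71 (SE 0.11, adjusted p = 0.0240) and -1.08 (SE 0.16, adjusted p = 0.0228) from anN1, with differences of -0.97 (SE 0.12, adjusted p = 0.0116) and -1.62 (SE 0.18, adjusted p = 0.00742) from wild-type. These comparisons share the emN1 arrays. The sign was the same in both array sets, where emN1 minus anN1 was -0.82 and -0.60 for the brighter probe set and -1.16 and -0.99 for the other. With 2 arrays a group the calls depend on single arrays: against the 4 controls, the brighter probe set had an adjusted p of 0.103 when anN1 replicate 1 was dropped, 0.106 when emN1 replicate 1 was and 0.156 when emN1 replicate 2 was. The other had 0.103, 0.103 and 0.209 when the same arrays were dropped. Against anN1 alone and wild-type alone, the calls of both probe sets were lost when any emN1 or anN1 array was dropped. Such a fit leaves 1 array in a group, and most or all calls over the 27022 probe sets were lost with it. Against the 4 controls, most calls over all probe sets were also lost without either emN1 array or without anN1 replicate 1. Loss of a call in these fits is therefore not particular to Nrarp or to the genes described below.

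Of the Hey genes Heyl was called by 1 of its probe sets, and Hey1 and Hey2 were not called. Heyl, a Hey repressor, is measured by 3 probe sets. The brightest (1419302_at) read 2142 and 2648 in emN1, 3882 and 3718 in anN1, and 5479 and 5834 in wild-type. As with Nrarp, the 3 groups were ordered with no overlap. Its log2 level fell by 0.87 against the controls (SE 0.19, adjusted p = 0.0472) and fell by 1.18 against wild-type (SE 0.17, adjusted p = 0.0190). Against anN1 the difference was -0.67 (SE 0.15, adjusted p = 0.0921), short of the threshold. It passed when either wild-type array was dropped, with the same difference of -0.67, but calls then rose over all probe sets. The call against the controls is close to the threshold and was lost when any of 4 arrays was dropped: the adjusted p was 0.318 for emN1 replicate 2, 0.246 for emN1 replicate 1, 0.246 for anN1 replicate 1 and 0.0979 for wild-type replicate 1. The call against wild-type was lost when any emN1 or anN1 array was dropped, with adjusted p-values from 0.130 to 0.388.

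The other Heyl probe sets did not show the step between emN1 and anN1. The second (1438886_at) read 1101 and 1359 in emN1, 1102 and 1600 in anN1, and 2850 and 2449 in wild-type. Here emN1 and anN1 overlapped and both lay under wild-type. Its difference was -0.12 from anN1 and -0.89 from wild-type (SE 0.21, adjusted p = 0.103). The third (1419303_at) read 208 and 459 in emN1, 286 and 468 in anN1, and 546 and 641 in wild-type, and no comparison called it. Heyl is known to be expressed in vascular mural cells, and the summed signal of the 5 tested pericyte and smooth muscle markers, with 4 of the 5 above background on all arrays, was 42529 and 43069 in emN1 against 16630 to 23393 in the controls. Of those 5 markers 4 rose in emN1, so the marker list and Heyl differed in opposite directions, and the markers' part in the Heyl result was not tested.

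Hey2, the repressor best known from heart and vessels, had the largest estimated difference from the controls among the tested probe sets of the 10 genes that did not pass the test. It read 108 and 216 in emN1, 319 and 460 in anN1, and 350 and 311 in wild-type. Both emN1 arrays lay under all 4 controls, while anN1 and wild-type overlapped. The difference from the controls was -1.01 (SE 0.34, adjusted p = 0.180), and from anN1 it was -1.23 (SE 0.38, adjusted p = 0.209). The lower emN1 array is under the background limit of 112, so this difference is between signals close to background. The summed signal of the 4 tested endothelial markers ranged from 1640 to 2293 over all arrays. Only 2 of the 4 were above background on all arrays, and 0 of 4 were called. Against the controls Tek lay below 0, while Kdr, Cldn5 and Egfl7 lay above 0. Pecam1, Cdh5, Emcn and Flt1 had no tested probe set, and the part of these markers in the Hey2 difference was not tested.

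Hey1 read 600 and 109 in emN1, 247 and 282 in anN1, and 294 and 211 in wild-type arrays. The emN1 arrays were the highest and the lowest of all 6, the lower one under background. Within the first array set emN1 minus anN1 was 1.22 and within the second it was -1.24, and the fitted difference from the controls was -0.19 (SE 0.51, adjusted p = 0.912). No direction can be given for Hey1, whose sign also turned without the array set as a term.

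Hes1 and Hes5 are the repressors most used as readouts of Notch. Hes1 did not pass the test, and Hes5 was too dim to be tested. Hes1 read 3507 and 4098 in emN1, 5662 and 4045 in anN1, and 4878 and 5022 in wild-type arrays. The second emN1 array lay just above the second anN1 array, and all other controls were higher. The difference from the controls was -0.38 (SE 0.16, adjusted p = 0.278), from anN1 -0.33 (SE 0.18, adjusted p = 0.513) and from wild-type -0.45 (SE 0.21, adjusted p = 0.425). The anN1 difference came from the first array set, at -0.69, while in the second it was 0.02.

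Hes5, whose promoter window carries both Rbpj cores shown above, was near background in these bulbs. Probe set 1423146_at read 140 and 197 in emN1, 185 and 46.4 in anN1, and 27.4 and 144 in wild-type. Probe set 1456010_x_at, whose suffix marks probes that can match other sequences, read 7.65 to 89.3 and was under background on every array. Both were left out of the test for their low level, so no direction is given for Hes5.

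Among the genes that act on the receptor's intracellular domain or on its targets, the brightest probe sets of Bcl6 and Dtx4 were highest in emN1. Bcl6 is a zinc-finger repressor. Its brighter probe set (1421818_at) read 7287 and 5348 in emN1, 3456 and 3005 in anN1, and 4128 and 3809 in wild-type. Both emN1 arrays lay above all 4 controls, and anN1 was under wild-type with no overlap.

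Bcl6 rose by 0.95 on the log2 scale against anN1 (SE 0.14, adjusted p = 0.0229), where the mean signal was 196% of that in anN1. In that comparison 3 of the 16 tested probe sets were called, both for Nrarp and this one, against 2.02% of all probe sets in either direction, 0.662% lower and 1.35% higher. Against the 4 controls its difference was 0.77 (SE 0.17, adjusted p = 0.0531), just short of the threshold, and against wild-type it was 0.49 (SE 0.16, adjusted p = 0.222). Its emN1 minus anN1 difference was 1.07 in the first array set and 0.83 in the second. Leaving out any emN1 or anN1 array ended the call against anN1, with adjusted p-values from 0.251 to 0.458.

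The other Bcl6 probe set (1450381_a_at) read 272 and 226 in emN1, 191 and 176 in anN1, and 246 and 117 in wild-type, with emN1 overlapping wild-type, and was not called in any comparison. Markers of several other cell types were also higher in emN1. The summed signal of the 6 tested immune markers, with 5 of the 6 above background on all arrays, was 5058 and 6365 against 1270 to 1558 in the controls, and 2 of the 6 rose. Cd3e and Cd207, of that list, had no tested probe set. Bcl6 is expressed in lymphocytes and macrophages, and the part of the immune markers in its result was not tested.

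The Deltex proteins are ubiquitin ligases that bind the intracellular domain. Dtx4 read 980 and 1027 in emN1, 574 and 483 in anN1, and 539 and 614 in wild-type by its brighter probe set (1436545_at). The emN1 arrays lay above all 4 controls, which overlapped one another. The difference was 0.84 from the controls (SE 0.22, adjusted p = 0.0833), 0.91 from anN1 (SE 0.26, adjusted p = 0.179) and 0.74 from wild-type (SE 0.29, adjusted p = 0.341), so none of these passed the threshold. Its other probe set (1455711_at) read 133 and 184 in emN1, 193 and 201 in anN1, and 69.8 and 191 in wild-type, and its emN1 minus controls difference of 0.01 (SE 0.52, adjusted p = 0.995) turned sign under other scalings. The 2 probe sets of Dtx4 therefore do not give the same picture.

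Dtx1 was not called in any comparison. Its tested probe set (1425822_a_at) read 312 and 289 in emN1, 335 and 337 in anN1, and 302 and 312 in wild-type arrays. The difference from the controls was -0.11 (SE 0.28, adjusted p = 0.903). The anN1 arrays were the highest 2 of the 6, and emN1 and wild-type overlapped. Its other probe set was under background on all arrays and was not tested.

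Id4 belongs to the Id proteins, which lack a DNA-binding region and hold basic helix-loop-helix partners away from DNA. Its 3 probe sets all lay below 0 in emN1 minus controls, and none passed the test. The brightest (1423259_at) read 3162 and 2360 in emN1, 4213 and 2391 in anN1, and 3429 and 3961 in wild-type arrays. The second (1450928_at) read 1647 and 1629, then 1971 and 2259, then 3216 and 3056. The third (1423260_at) read 375 and 282, then 678 and 513, then 539 and 424.

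The second Id4 probe set thus showed the same ordering as Nrarp and Heyl, emN1 under anN1 under wild-type with no overlap. In the brightest, the second anN1 array was as low as its emN1 partner, and in the third, anN1 and wild-type overlapped while emN1 lay under both. The differences from the controls were -0.42 (SE 0.20, adjusted p = 0.350), -0.57 (SE 0.20, adjusted p = 0.193) and -0.79 (SE 0.25, adjusted p = 0.154). The smallest adjusted p for Id4 was 0.0669, for the second probe set against wild-type, where the difference was -0.88 (SE 0.18).

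The relatives Id2 and Id3 fell in emN1 against the controls while Id1 was not called. Id3 read 14322 and 10023 in emN1, 19627 and 14990 in anN1, and 15118 and 15779 in wild-type, and fell by 0.55 (SE 0.09, adjusted p = 0.0157). Id2 read 13967 and 10241 in emN1, 16904 and 16947 in anN1, and 17795 and 19207 in wild-type, and fell by 0.60 (SE 0.13, adjusted p = 0.0466). Both emN1 arrays were under all controls for both genes by these signals, which are of the brightest probe set. A dimmer Id2 probe set read 2002 and 1270 in emN1 against 1962 to 3191 in the controls. It overlapped them and fell by 0.69 (SE 0.14, adjusted p = 0.0388). The dimmest read 153 and 402 in emN1 against 258 to 469 in the controls and was not called. The difference of Id1 was 0.03 (SE 0.10, adjusted p = 0.919). Without emN1 replicate 2, the lower emN1 array, the differences were -0.45 for Id3 (adjusted p = 0.213) and -0.28 for Id2 (adjusted p = 0.453). The Id2 call was lost when any of the 6 arrays was dropped, and the Id3 call also without emN1 replicate 1 (adjusted p = 0.0822) or anN1 replicate 1 (adjusted p = 0.0829). Neither Id2 nor Id3 stayed called with median scaling, at adjusted p-values of 0.140 and 0.101.

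Where the whole set of 6 arrays is ordered, 6 of the 16 tested probe sets had both emN1 arrays under all 4 controls, against 9.33% of all 27022. They belong to 4 genes: Nrarp with 2, Heyl with 1, Hey2 with 1 and Id4 with 2. Above all 4 controls were 2 probe sets, of Bcl6 and Dtx4, against 9.99%. The order emN1, anN1, wild-type without overlap held for 4 probe sets of 3 genes, Nrarp, Heyl and Id4, against 1.88%.

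In emN1 against wild-type alone, 3 of the 16 were called lower, both Nrarp probe sets and the brightest of Heyl, and 0 were called higher. Of all probe sets, 2.16% were called in either direction, 0.629% lower and 1.53% higher. The median log2 difference was -0.56 for the 16 and 0.00 for all probe sets, and 12 of the 16 lay below 0, against 49.6% of all. Against anN1 the medians were -0.26 and -0.02, and 13 of the 16 lay below 0, against 52.9% of all.

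**Figure D2:**
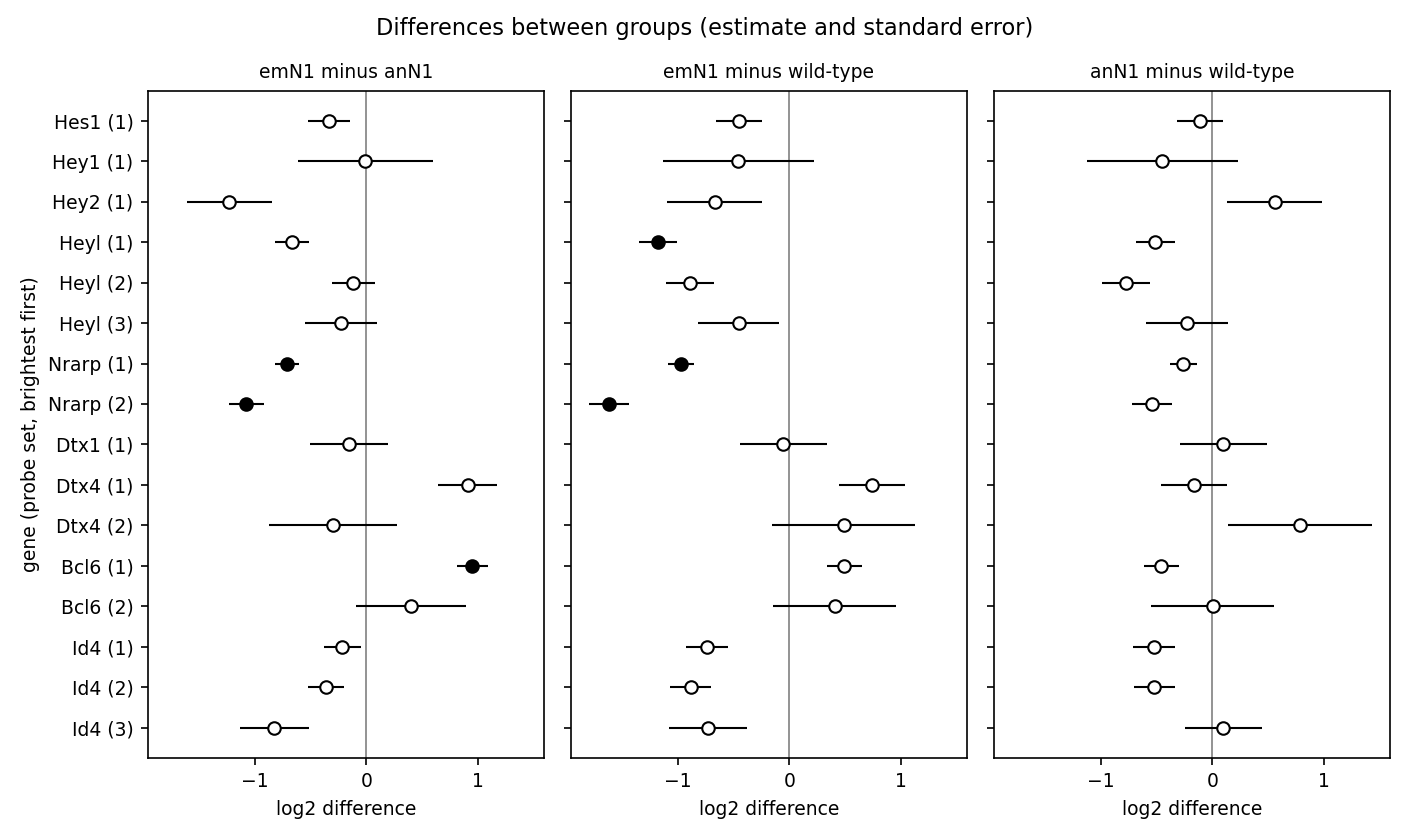
Log2 difference (point) and its standard error (bar) for each of the 16 tested probe sets in emN1 minus anN1, emN1 minus wild-type and anN1 minus wild-type, numbered within a gene from the brightest, with filled points for adjusted p under 0.05. The filled points are Nrarp in both emN1 comparisons, Heyl (1) against wild-type at -1.18 and Bcl6 (1) against anN1 at 0.95, and the anN1 minus wild-type panel holds none.

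The anN1 and wild-type controls, both with functional Notch1 by their labels, were also compared with each other. The Notch1 signal itself was lower in anN1 by its brightest probe set, with a difference of -1.13 (SE 0.20, adjusted p = 0.289). Without wild-type replicate 1 that difference was -1.39 and passed the threshold, but calls then rose over all probe sets, so this gain is not particular to Notch1. Its other tested probe set differed by -0.19 (SE 0.22). The comparison is therefore not shown to be free of a difference in the receptor. Limma called 0 of the 16 tested probe sets, against 0.074% of all, and 6 of the 16 stood at an unadjusted p under 0.05, against 3.64% of all. Below 0 lay 11 of the 16, against 46.3% of all. The largest differences were -0.77 for the second Heyl probe set (SE 0.21, adjusted p = 0.974) and 0.79 for the dimmer Dtx4 probe set. Nrarp differed by -0.26 (SE 0.12) and -0.54 (SE 0.18), Heyl by -0.51 (SE 0.17) in its brightest probe set, and Bcl6 by -0.46 (SE 0.16) in its brighter one. The mean anN1 signal of Nrarp was 78.9% and 64.9% of that in wild-type, and that of the brightest Heyl probe set was 67.2%.

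Thus for Nrarp and Heyl the anN1 arrays lay between the other groups, while for Hey2 and the third Id4 probe set they were, on average, the highest. Only the second array set holds both kinds of control, and its anN1 array is 1, so the anN1 minus wild-type difference within a set has no replicate. The probe sets for Cre recombinase carried on the array as controls read 395 to 515 (first pair, 3′) in the 4 emN1 and anN1 arrays and 62.4 and 79.0 in wild-type.

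**Figure D3:**
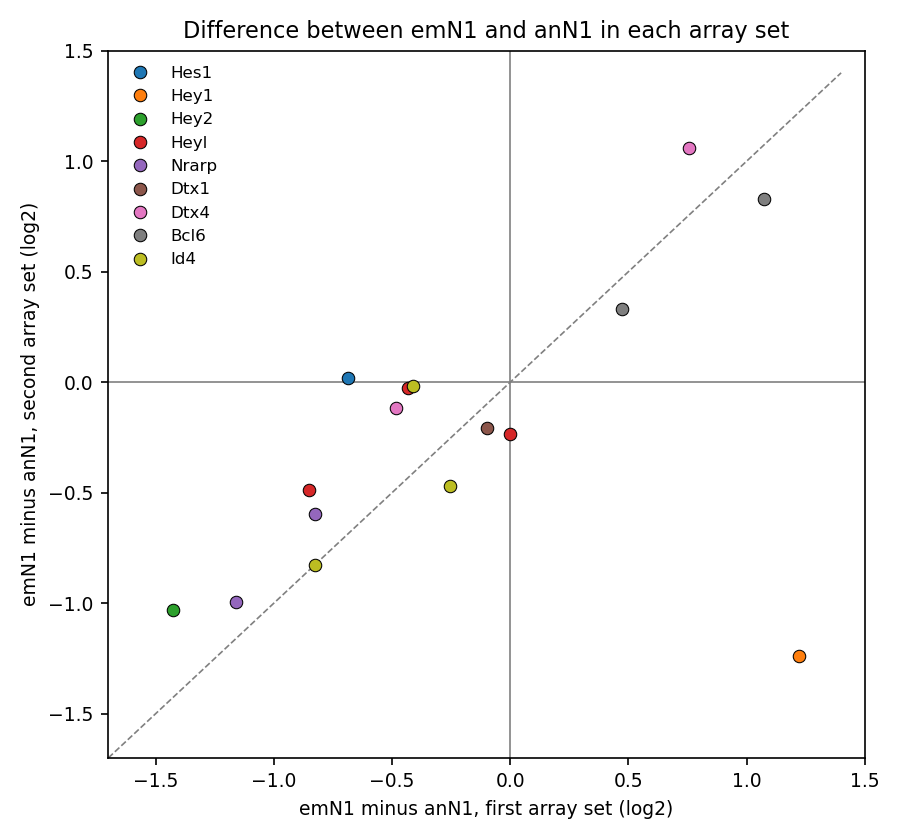
Log2 difference emN1 minus anN1 of the 16 tested probe sets in the first array set (x axis) and in the second (y axis), 1 array of each group per set, coloured by gene, with a dashed line where both are equal. Nrarp, Hey2, Id4, Dtx1 and the Heyl probe sets lie at or below 0 in both sets, the Bcl6 points and the brighter Dtx4 lie above 0 in both, and Hey1 lies at 1.22 in one and -1.24 in the other.

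The agreement of the array sets is a description of 2 pairs of arrays. Hes1 and Hey1 were the tested genes whose sign turned between the sets. For Dtx4 the brighter probe set gave 0.75 and 1.06 and the dimmer -0.48 and -0.12, so its probe sets disagreed in both sets.

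The rest of the pathway was read from lists by role, with 79 genes listed, 73 on the array and 64 tested by their brightest probe set. In emN1 against the controls, 4 of the 64 were lower, Notch1, Ccnd1, Id2 and Id3, and 0 were higher, against 5.43% of all genes in either direction, 1.84% lower and 3.59% higher. The median difference was 0.00 over the 64 genes and -0.02 over all 12611. Among the 3 other Hes genes tested, the 3 other Deltex genes, the 6 ligands, the 5 Fringe and glycosylation enzymes and the 8 genes of receptor cleavage, 0 were called. The same holds for the 5 genes of the nuclear complex, the 9 co-repressors and the 10 genes of turnover and inhibition.

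Notch1 fell by 1.55 against the controls (SE 0.35, adjusted p = 0.0491), fell by 1.10 against anN1 (SE 0.18, adjusted p = 0.0282) and fell by 2.23 against wild-type (SE 0.20, adjusted p = 0.00344). Ccnd1, which encodes cyclin D1 and is described as a Notch target, read 5848 and 4287 in emN1, 10218 and 9838 in anN1, and 8269 and 9787 in wild-type. These are signals of its brightest probe set, in which anN1 was not under wild-type. A dimmer one read 2533 and 4549 in emN1, 6875 and 6731 in anN1, and 8731 and 11199 in wild-type. That is the order of Nrarp and Heyl without overlap, and this probe set fell by 1.13 (SE 0.21, adjusted p = 0.0233). In the dimmest, anN1 and wild-type overlapped. By its brightest probe set Ccnd1 fell by 0.99 (SE 0.13, adjusted p = 0.00579). Without emN1 replicate 2 its difference was -0.80 (adjusted p = 0.143). For the brightest Notch1 probe set the call against the controls, like that of Heyl, was lost when either emN1 array, the first anN1 array or wild-type replicate 1 was dropped. Its calls against anN1 and against wild-type were lost when any emN1 or anN1 array was dropped, with adjusted p-values from 0.284 to 0.571 and from 0.0936 to 0.381.

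Jag1, a ligand that is itself described as a target, was called only against wild-type among these comparisons. It read 15996 and 16405 in emN1, 13823 and 15195 in anN1, and 30143 and 26840 in wild-type arrays. The emN1 level fell by 0.77 against wild-type (SE 0.12, adjusted p = 0.0248), while against anN1 the difference was 0.16. The Jag1 call was lost when any emN1 or anN1 array was dropped, with adjusted p-values from 0.153 to 0.504. In anN1 minus wild-type the Jag1 difference was -0.93 (SE 0.12, adjusted p = 0.0992). It was -0.85 without wild-type replicate 1 and -1.01 without wild-type replicate 2. It passed the threshold in both fits, in which calls rose over all probe sets. Both deleted groups therefore read lower than wild-type for this ligand.

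**Figure D4:**
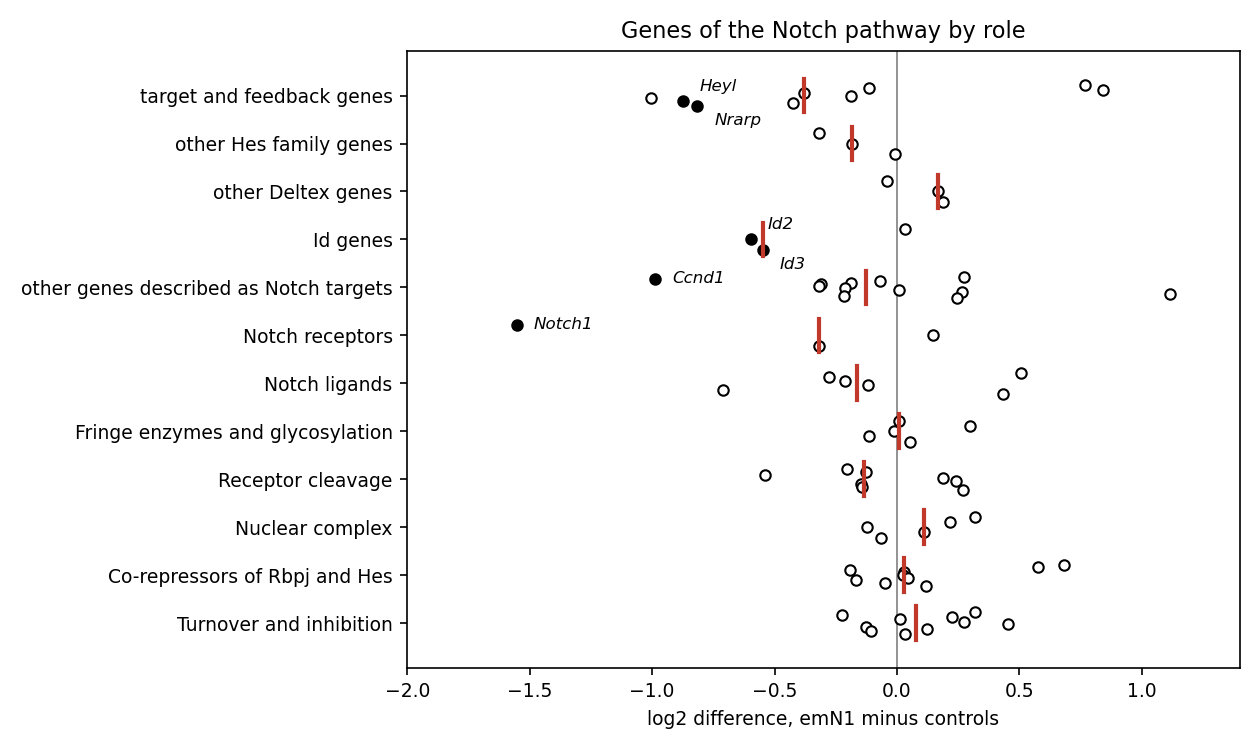
Log2 difference emN1 minus controls (x axis) of each tested gene by its brightest probe set, in rows by role in the Notch pathway, with filled and named points for adjusted p under 0.05 and a red bar at each row's median. Nrarp and Heyl of the target and feedback genes, Id2, Id3, Ccnd1 and Notch1 are the filled points, all left of 0, and the rows for cleavage, nuclear complex, co-repressors and turnover hold none.

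Some of the 10 target and feedback genes were above background on all arrays by their brightest tested probe set. Among these, the 4 with the widest range of log2 signal were Heyl, Bcl6, Nrarp and Dtx4. Their nearest profiles were sought over the 6 arrays. Likeness was the root mean square difference of mean-centred log2 signals, over 12610 other genes, whose median distance was 0.496 to 0.582. Nrarp and Heyl were among each other's 3 nearest genes, at 0.106. They were chosen for the same list with earlier results of these data known, so their likeness is a description only. Slc11a1, a metal ion transporter of macrophages, was nearest to both, at 0.0782 from Nrarp and 0.0955 from Heyl, with 1 emN1 array under background at 99.6.

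The third near gene was Zfp518b for Nrarp (0.106) and Tmem38b for Heyl (0.134). Nearest to Bcl6 were Tmem140 (0.0729), Slit2 (0.0784) and Sfxn3 (0.106). Nearest to Dtx4 were Krtdap (0.0573), Col3a1 (0.0702) and Cd109 (0.0938). Col3a1, a fibrillar collagen of fibroblasts, read 28510 and 26740 in emN1 against 12310 to 16610 in the controls and rose by 0.87 (adjusted p = 0.00976). Over the 7 tested fibroblast markers, all above background on all arrays, the summed signal was 96138 and 83526 in emN1 against 57232 to 70113 in the controls, and 4 of the 7 rose. Their part in the Dtx4 difference was not tested.

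Melanocytes are a further cell type of the bulb in which Notch acts. The summed signal of the 8 melanocyte markers was 114521 and 96096 in emN1 against 210730 to 304103 in the controls, with 6 of the 8 lower, a median difference of -1.39 and all 8 above background on every array. The summed signal was highest in the anN1 arrays. The part of these markers in the lower Nrarp, Heyl, Id2 and Id3 signals was not tested. Among the dermal papilla markers 2 of 7 were lower and 1 higher, and among inner root sheath markers 0 of 6 were called. Of the 9 tested genes listed as hair matrix and shaft markers, 2 were higher, Krt5 and Krt14. The others were not called: Msx2, Lef1 and Krt35 lay below 0, and Hoxc13, Dlx3, Krt31 and Foxn1 lay above 0. Of the markers of adipocytes (2 tested), skeletal muscle (3) and interfollicular epidermis (3), 0 were called.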

How the data were processed

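The table of 6 arrays and 45101 probe sets holds intensity values on a linear scale, deposited by the authors; the submitters' processing notes name MAS5. The values show a trimmed mean (2nd to 98th percentile) of 1500 on every array. Gene symbols came from the platform annotation: 34958 probe sets have 1 symbol, 932 several and 9211 none. Through gene identifiers 34754 matched the RefSeq table (GRCm38.p6, used for names) and 0 symbols changed.

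Signals were taken as log2(signal + 17.8), the pseudocount being the 10th percentile of all values. Differences on this scale understate changes of dim probe sets. Of 45037 probe sets that are not controls, the upper 60% by mean log2 signal (27022) were tested with limma 3.58.1 in R 4.3.3 (lmFit, then eBayes with trend, both directions tested). P-values were adjusted by Benjamini-Hochberg over all of them. A fit of emN1 against the 4 controls left 3 residual degrees of freedom, and a fit of 3 groups left 2. The number of arrays limits the precision, and a p-value reflects only how far these samples differ from one another. A gene is represented by its brightest tested probe set, and levels of different probe sets were not set against each other.

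The design text says that same-numbered emN1 and anN1 arrays shared an array set, so the set is a term in every fit. The deviations of same-numbered arrays from their group means correlated at 0.38 between emN1 and anN1 over 27022 probe sets, and at -0.19 and -0.02 with wild-type, whose numbers mark no set. In data drawn with known answers for emN1 minus controls (200 changed of 27022 probe sets, 10 draws), 24.5% of differences of 1 log2 unit and 66.3% of 2 units were recovered, with 6.1 false calls on average.

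The 10 genes, the pathway lists and the marker lists were chosen with earlier results of these data known. Named outside the 10 genes are the listed pathway genes past the threshold, Notch1, and the 3 nearest profiles of 4 members; Jag1, Id1 and Col3a1 were singled out after their values were seen. Alternatives tried were the pseudocount, the filter, the trend, the array set term, the scaling, a floor at background, the mean of a gene's probe sets, each array left out, and, chosen after seeing the data, the second array set alone. Promoter letters were searched with Python 3.11.15.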

Additional observations from a re-analysis of the deposited data

Results flagged for a closer look

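In the dimmer Dtx4 probe set (1455711_at), 1 of the 4 control arrays stood far from the others: wild-type replicate 1 read 69.8, under background, and the other controls 191 to 201. The gap was 0.924 of the whole range of the controls. Of the 16 tested probe sets of the 10 genes, each checked over its 4 controls, this was the 1 that stood apart to that degree, and chance alone flags about 1 group in 20.

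The control probe sets for Cre recombinase, which no comparison uses, gave signal in both deleted groups. The lowest of the 4 emN1 and anN1 arrays read 395 for the 3′ probe set of the first pair, against 62.4 and 79.0 in wild-type. For the 3′ probe set of the second pair the lowest read 349, against 29.2 and 4.29 in wild-type. The emN1 and anN1 arrays overlapped in both.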

How the results depend on the processing

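With 2 arrays a group and 3 or fewer residual degrees of freedom, counts of calls moved with most choices, while no called log2 difference turned sign under any alternative run. Counts are of genes called by their brightest probe set: 2 (Nrarp and Heyl) in emN1 against the controls, 2 (Nrarp and Bcl6) against anN1, 2 (Nrarp and Heyl) against wild-type, 0 in anN1 against wild-type, and 4 of the pathway lists. Without the intensity trend the counts of the first 3 and of the pathway lists were 0, 0, 0 and 0, and over all 27022 probe sets limma called 0 in emN1 against the controls (4044 at an unadjusted p under 0.05). Without the replicate block (no array set term) they were 0, 0, 1 and 0, and probe sets called overall went from 1020 to 286, 545 to 42 and 584 to 215. In the second array set alone, which holds 1 emN1 and 1 anN1 array, most or all calls were lost, on these genes and over all 27022 probe sets. The mean of all tested probe sets gave 1 against the controls, 1 against anN1, 3 against wild-type (all lower) and 5 for the pathway (4 lower and 1 higher). Without a filter the controls count was 1 and the pathway count 2, a pseudocount of 1 gave 1 against the controls, and median scaling gave 1 against anN1 (Bcl6) and 2 for the pathway. Leaving out each array in turn gave 0 to 3 against the controls, 0 to 3 against anN1, 0 to 2 against wild-type and 0 to 3 for the pathway. A group left with 1 array was assumed to vary like the others. In the fit of 3 groups, calls over all 27022 probe sets also moved. Those against anN1 and against wild-type were mostly or wholly lost without an emN1 or anN1 array, and they rose without a wild-type array. In the fit against the controls, most calls were lost without either emN1 array or without anN1 replicate 1. The cause was not tested. Bcl6 against the controls passed the threshold with the stricter filter (adjusted p = 0.0477), a pseudocount of 64 (0.0491), quantile normalization (0.0466), the floor (0.0413), and without wild-type replicate 1 (0.0499) or 2 (0.0417).

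Differences that turned sign were all uncalled. The dimmer Dtx4 probe set in emN1 minus controls was -0.013 with median scaling, -0.0027 with a pseudocount of 64, -0.0201 with quantile normalization and -0.0989 with the floor. The dimmer Bcl6 probe set in anN1 minus wild-type was -0.0846, -0.0121 and -0.0694 under the first 3 of these. Without the replicate block Hey1 was 0.0296 against the controls, 0.0678 against wild-type and 0.0764 in anN1 minus wild-type, and Id3 in anN1 minus wild-type was 0.15. Hey1 in emN1 minus anN1 was 0.0478, 0.0318 and 0.0055 with the pseudocount of 64, quantile normalization and the floor. Dtx1 in anN1 minus wild-type was -0.0067 with quantile normalization, and Ccnd1 there was -0.058 with median scaling. In the second set alone Hes1 in emN1 minus anN1 was 0.0187 and Hey1 in anN1 minus wild-type was 0.17.

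Leaving out arrays turned these signs too. Against the controls the range was -1.13 to 1.22 for Hey1, -0.48 to 0.34 for the dimmer Dtx4 probe set and -0.49 to 0.21 for Jag1. Against anN1 it was -1.24 to 1.22 for Hey1 and -0.69 to 0.0187 for Hes1. Against wild-type it was -1.07 to 1.39 for Hey1, -0.0813 to 0.0297 for Dtx1, -0.14 to 1.11 for the dimmer Dtx4 and -0.0779 to 0.89 for the dimmer Bcl6. In anN1 minus wild-type it was -2.29 to 0.17 for Hey1, -0.48 to 0.49 for the dimmer Bcl6, -0.26 to 0.0625 for the brighter Dtx4, -0.29 to 0.42 for Hes1, -0.34 to 0.078 for the third Heyl probe set, -0.26 to 0.15 for Ccnd1 and -0.0698 to 0.27 for the third Id4 probe set.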
